A study of Mus musculus with 7 samples.

Results

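The 10 genes described here encode enzymes and transporters of glycolysis and lactate metabolism, together with the paralogs of them that male germ cells are known for. They were taken by name from a fixed list (Ldha, Ldhb, Ldhc, Pgk1, Pgk2, Hk1, Hk2, Pkm, Slc2a1 and Slc16a1), with no cut on their values, and are 10 of the 21928 genes in the deposited tables. Earlier results of these data were known when the genes were chosen. RNA was measured by bulk RNA-seq in 7 libraries from synchronized mouse testes enriched for preleptotene spermatocytes, the last germ cells before meiotic prophase, from 4 wild-type pups and 3 Meioc-null pups. All pups were C57BL/6N, and both groups had received WIN 18,446, which blocks the synthesis of retinoic acid, in daily doses of 0.1 mg per gram of body weight from postnatal day 2 to 8. Retinoic acid followed at 0.0125 mg per gram on day 9, and the testes were taken 6.75 days after it. Each library came from 1.5 testes of 1 pup, so it holds all cell types of the testis and not only the enriched stage. The Meioc-null pups carried the allele Meioc tm1.1Dpc, a null allele for which no tissue-restricted driver is named, and ERCC spike-in mix 1 had been added to wild-type and mix 2 to Meioc-null samples.

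Glycolysis turns glucose into pyruvate, and lactate dehydrogenase interconverts pyruvate and lactate. In the testis, Sertoli cells, the somatic nurse cells of the tubule, take up glucose and release lactate, which meiotic and later germ cells use as fuel. Pgk1 and Pdha1 lie on the X chromosome, which is silenced in male meiosis, and the retrogenes Pgk2 and Pdha2, like the duplicated gene Ldhc, are known for their use in spermatocytes and spermatids.

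Library depth lay between 12537852 and 20552702 estimated counts. Meioc itself was measured at 467.7, 660.2, 664.0 and 720.0 CPM (counts relative to library size, scaled by the TMM factors of edgeR) in the wild-type libraries and at 400.3, 299.6 and 412.9 CPM in the Meioc-null libraries, so the groups did not overlap and the Meioc-null testes still held Meioc transcript (log2 fold change 0.76, adjusted p = 0.021 by edgeR). A positive log2 fold change means more in wild type, and a gene was called when its adjusted p (quasi-likelihood test of edgeR, Benjamini-Hochberg over 13630 genes) was under 0.05. A gene entered the test with a TPM, the length-scaled transcript abundance, of 1 or more in 3 or more of the 7 libraries, and 8 of the 10 genes did. Ldhc and Pgk2 did not. On the log2(TPM + 1) scale the median over all genes shifted to -0.23, against -0.0065 in the CPM fit, so changes on that scale are to be read relative to that shift. Markers checked the tissue. The 16 Sertoli genes summed to 6193 to 6328 CPM in wild-type libraries and to 6379 to 7054 CPM in Meioc-null libraries, of which Clu alone was 55.2% to 62.3%. Without Clu the sums overlapped, at 2565 to 2783 CPM and 2661 to 2861 CPM. The 12 germ cell genes summed to 2468 to 2985 CPM in wild-type and 1774 to 1954 CPM in Meioc-null libraries. Genes of pachytene and later germ cells were scarce: Tnp2, Prm1 and Prm2, which package DNA in spermatids, had 0 counts in every library, and Tnp1, Ccna1 and Spata16 had at most 3 counts. Of the 17 genes on that list, 6 passed the filter. In such bulk samples, fewer cells of a type and less RNA per cell cannot be told apart.

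The germ-cell paralogs resemble their somatic partners closely, and the reads were 50 bases long, so it matters whether a read can tell them apart. The coding sequences of Ldhc and Ldha were 73.5% identical and those of Pgk2 and Pgk1 79.3% identical. The most similar 50-base stretch of each pair, read from GENCODE vM21 transcripts (GRCm38) and counted from the first base of the start codon, is printed with the differing bases in capitals. The Ldhc and Ldha stretches (coding bases 550 to 599 of both) differ at 6 bases, and the Pgk2 and Pgk1 stretches (coding bases 283 to 332 of both) at 5 bases.
Ldhc: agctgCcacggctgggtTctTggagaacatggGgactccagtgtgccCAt
Ldha: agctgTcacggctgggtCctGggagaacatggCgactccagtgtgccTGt
Pgk2: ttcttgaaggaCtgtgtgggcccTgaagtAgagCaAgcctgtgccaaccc
Pgk1: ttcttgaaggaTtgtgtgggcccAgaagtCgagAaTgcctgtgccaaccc

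No stretch of 31 bases, the word length used to assign reads, was shared within either pair, nor between Hk1 and Hk2. Other copies were more alike. Of the 31-base words of Pgk1, 68.3% also occur in other annotated genes, chiefly the processed pseudogenes Pgk1-rs7 and Gm5537. For Pkm the share was 52.6% over 16 genes, for Ldhb 41.4% (all in Gm5514) and for Ldha 31.9% over 27 genes. Of these genes, only 1 of the 16 that share words with Pkm is in the tables analysed here, and the pseudogenes are not, so the levels of Pgk1, Pkm, Ldhb and Ldha are uncertain to the extent that reads were divided with them. For Hk2 the share was 0.233%, and for Ldhc, Pgk2, Hk1, Slc2a1 and Slc16a1 it was 0%.

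Pgk2 and Ldhc were near or under the limit of detection in both genotypes. Pgk2 (chr17:40207015-40208640, minus strand, 1 exon) is the phosphoglycerate kinase of spermatocytes and spermatids. It had 0 counts in 6 libraries and 1 count in wild-type replicate 2. A count of 0 allows up to 3 counts, which is 0.151 to 0.237 CPM depending on the library. Pgk1 (chrX:106187100-106203699, plus strand), its X-linked source gene, had 741 to 1631 counts per library. A difference between genotypes in Pgk2 was not detectable at this depth.

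Ldhc (chr7:46861203-46878142, plus strand), the lactate dehydrogenase subunit of spermatocytes and sperm, begins 5575 bases beyond the end of Ldha (chr7:46841475-46855627, plus strand). It had 2, 6, 5 and 3 counts in the wild-type libraries and 6, 3 and 6 counts in the Meioc-null libraries, 31 in all. The groups overlapped fully. Its TPM was 0.446, 0.482, 0.552 and 0.384 in wild type and 0.482, 0.342 and 0.438 in Meioc-null testes. Across the libraries, the TPM of Ldhb was 1234 to 2073 times that of Ldhc. Ldhc held 0.0648% ± 0.00975 (SD, n = 4) of the TPM of the 3 lactate dehydrogenase genes in wild type and 0.0570% ± 0.0108 (SD, n = 3) in Meioc-null testes, a difference that an exact two-sided permutation test, with 35 ways to assign the libraries, put at p = 0.4 (0.56 adjusted over 7 shares tested). The smallest p this design can give is 0.0571. The sign of that difference turned when counts replaced TPM, with -0.011 percentage points.

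Some other glycolytic genes known from spermatids were as scarce. Gapdhs, the sperm glyceraldehyde-3-phosphate dehydrogenase, had 0, 1, 0 and 1 counts in wild-type and 3, 0 and 2 counts in Meioc-null libraries, and the aldolase retrogenes Aldoart1 and Aldoart2 had at most 3 counts in any library. Ldhal6b, a further lactate dehydrogenase retrogene, was somewhat above this, with 4 to 18 counts, and stayed below the filter. Of the germ-cell paralogs listed, 5 of the 11 annotated were tested. Pdha2 was called higher and Slc2a3 lower in wild type, where 7.77% and 3.33% of all genes were called. The rest were the enolase Eno4 (log2 fold change -0.088), the fructose-bisphosphate regulator Pfkfb4 (0.14) and the monocarboxylate transporter Slc16a7 (-0.072), with adjusted p of 0.82, 0.67 and 0.85 in edgeR. These were well above the counts of Pgk2 and Ldhc, at 42 to 64 counts per library for Eno4 and 163 to 292 for Pfkfb4.

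The promoters of Pgk1 and Pgk2 are shown because 1 gene of the pair was well measured, at 48.4 to 67.9 TPM, and the other was at or under the limit of detection, at 0 to 0.0795 TPM. Both are RefSeq sequences on GRCm38.p6 of 300 bases, from 250 before to 50 after the start, with CpG dinucleotides in capitals (Pgk1 chrX:106186850-106187149, plus strand, and Pgk2 chr17:40208560-40208859, minus strand).
Pgk1: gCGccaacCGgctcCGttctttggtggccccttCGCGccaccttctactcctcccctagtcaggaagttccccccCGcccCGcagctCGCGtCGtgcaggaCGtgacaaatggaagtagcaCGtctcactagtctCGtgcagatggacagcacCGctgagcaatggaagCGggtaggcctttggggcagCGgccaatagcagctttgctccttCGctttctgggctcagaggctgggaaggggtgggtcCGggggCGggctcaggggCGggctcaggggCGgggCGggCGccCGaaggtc
Pgk2: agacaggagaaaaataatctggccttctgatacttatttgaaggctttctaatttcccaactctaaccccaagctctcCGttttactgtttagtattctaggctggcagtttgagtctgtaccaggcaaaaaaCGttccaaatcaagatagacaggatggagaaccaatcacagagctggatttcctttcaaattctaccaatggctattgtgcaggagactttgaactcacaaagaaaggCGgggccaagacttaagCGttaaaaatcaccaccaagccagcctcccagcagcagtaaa

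The Pgk1 window holds 24 CpG and the Pgk2 window 4, where the median of 32851 promoters is 7. GC content was 66.7% in Pgk1 and 43.0% in Pgk2. The windows of the other widely used members held more CpG than the median for at least 1 start: 30 for Ldha, 17 for Ldhb, 20 for Hk1, 25 for Hk2, 27 for Pkm, 18 for Slc2a1 and 42 for Slc16a1. The windows at the 2 Ldhc starts held 9, which is also above the median of 7, and 3, and that at the upstream Hk1 start held 1. The letters ACGTG, searched on both strands and found also inside the longer E-box CACGTG, are the core of the site bound by hypoxia-inducible factors. They occurred in a window of Ldha, Pgk1, Hk1, Hk2, Pkm, Slc2a1 and Slc16a1, but not in these windows of Ldhb, Ldhc or Pgk2, and 19.6% of all promoters hold them. That share counts single promoters of any CpG content, whereas a gene here had 1 or 2 windows. ACGTG holds a CpG, and the member windows with it held 18 to 42 CpG, so the share is not a matched background. These matches describe the letters in the windows and were not tested against any measurement.

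The levels of the 10 genes covered a wide range that was stable between libraries. Per transcript length, Ldhb, the lactate dehydrogenase subunit of oxidative tissues, was highest at 658 to 708 TPM in the 7 libraries. Pkm, the pyruvate kinase gene, followed at 443 to 484 TPM. Slc16a1, the lactate and pyruvate transporter MCT1, had 59.7 to 81.8 TPM. Below it stood Pgk1 (48.4 to 67.9 TPM), Ldha (32.3 to 58.3 TPM) and Hk2 (34.2 to 60.6 TPM). Hk1 (10.4 to 19.7 TPM) and the glucose transporter Slc2a1, or GLUT1 (8.04 to 14.8 TPM), were lower, then Ldhc and Pgk2. The ranges of neighbours overlapped for Slc16a1 and Pgk1, for Pgk1 and Ldha, for Ldha and Hk2, and for Hk1 and Slc2a1, so the spread over libraries alone does not order them. Within each of the 7 libraries, however, Slc16a1 stood above Pgk1 and Hk1 above Slc2a1, whereas Pgk1 stood above Ldha in 5 and Ldha above Hk2 in 4. The ranges did not overlap for Ldhb and Pkm, Pkm and Slc16a1, Hk2 and Hk1, Slc2a1 and Ldhc, or Ldhc and Pgk2.

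**Figure D1:**
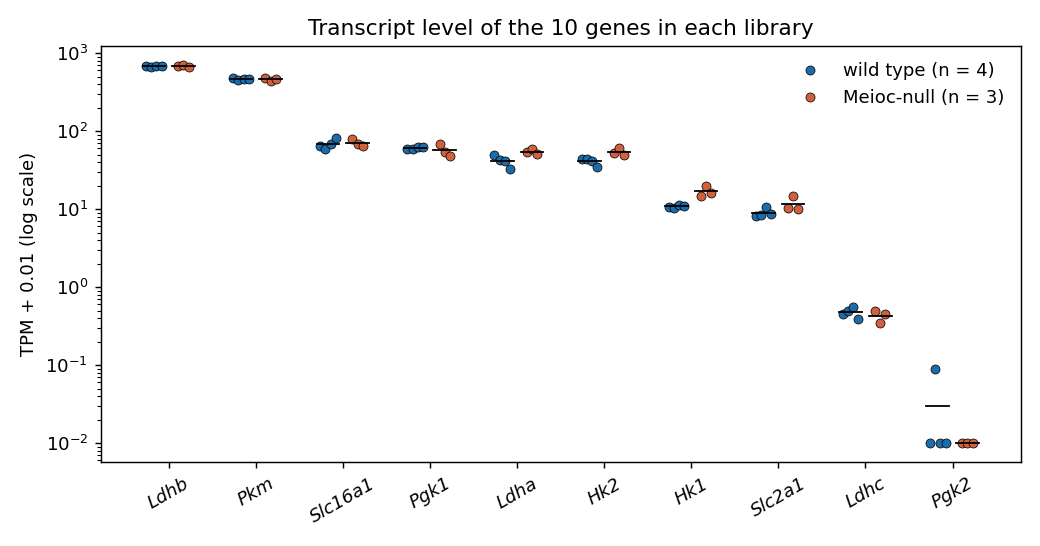
Transcript level in TPM, with 0.01 added so that 0 can be drawn, on a log scale for each of the 10 genes in 4 wild-type (blue) and 3 Meioc-null (orange) libraries, ordered by the mean over the 7 libraries. Points are libraries and lines are group means; Ldhb lies at 658 to 708 TPM and Pgk2 at 0 in 6 libraries.

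Of the 8 tested genes, 1 was called, Hk1, which was lower in wild type, and 0 were called higher by edgeR. At an unadjusted p under 0.05 there were 3 higher (Ldhb, Pgk1 and Pkm) and 1 lower, DESeq2 called 1 higher and 1 lower, and limma on log2(TPM + 1) called 0 higher and 2 lower. Over all 13630 genes, edgeR called 11.1%, 7.77% higher and 3.33% lower in wild type, and 4133 had an unadjusted p under 0.05. DESeq2 called 1456 of all genes higher and 875 (6.42%) lower, and limma on log2(TPM + 1) 440 higher and 2082 (15.3%) lower. The median log2 fold change of the 8 genes was 0.053, beside -0.0065 over all genes, with 4 above and 4 below 0. The CPM did not overlap between genotypes for Ldhb, Pkm and Hk1, where 26.2% of all genes did not overlap. A count of 1 in 8, or 12.5%, is close to the background of 11.1%.

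Hk1 (chr10:62268855-62379908, minus strand) and Hk2 (chr6:82725025-82774454, minus strand) encode hexokinases, which phosphorylate glucose and so hold it in the cell. Hk1 was at 32.3, 36.8, 39.3 and 38.2 CPM in wild-type libraries and at 43.4, 50.5 and 48.0 CPM in Meioc-null libraries. All 3 Meioc-null libraries lay above all 4 wild-type ones. The log2 fold change was -0.37 (SE 0.095, adjusted p = 0.038 by edgeR, n = 4 and 3). It stayed negative in all 15 alternatives run, from -0.63 to -0.31, but was called in 2 of the 7 fits that left out 1 library, with adjusted p between 0.031 and 0.11. Libraries whose omission ended the call were wild-type replicates 2, 3 and 4 and Meioc-null replicates 2 and 3. In those fits the log2 fold change of Hk1 stayed between -0.40 and -0.32. Calls lower in wild type over all genes fell there from 454 to between 18 and 114, so the lost call does not single out these libraries for Hk1. The same limit holds in those fits for the genes below. The Sertoli markers other than Clu summed to 2565 to 2783 CPM in wild-type and to 2661 to 2861 CPM in Meioc-null libraries, which overlap, and their part in the Hk1 value was not tested.

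Hk2 stood at 193.7, 226.6, 203.0 and 167.5 CPM in wild-type testes and at 220.3, 224.0 and 216.0 CPM in Meioc-null testes. The ranges of the genotypes overlapped, and the difference of -0.15 on the log2 scale (SE 0.099, adjusted p = 0.32 by edgeR) was not called. On the log2(TPM + 1) scale it was -0.41 and was called by limma with an adjusted p of 0.039, which is -0.18 relative to the median shift of all genes on that scale. Per length, Hk2 was 3.08 to 4.24 times as high as Hk1. Hk2 made up 78.9% ± 2.40 (SD, n = 4) of the TPM of the pair in wild type and 76.3% ± 1.47 (SD, n = 3) in Meioc-null testes (exact two-sided permutation p = 0.114, adjusted 0.267). That difference of 2.54 percentage points was similar to the spread between libraries.

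The Hk1 estimate was spread over 4 transcripts that start at different bases. Hk1-203, which starts farthest upstream at base 62379908, held 35.6%, 42.2%, 35.5% and 56.1% of Hk1 TPM in wild type and 46.0%, 32.0% and 40.1% in Meioc-null libraries. The groups overlapped (exact permutation p = 0.8, adjusted 0.933), and the difference turned to -1.59 percentage points without wild-type replicate 4 and -0.71 without Meioc-null replicate 2. The transcript that starts at base 62358362 ranged from 0% to 34.3% of Hk1 TPM, so the estimated division between transcripts varied widely among libraries. Hk1-205, which starts at base 62342722, was at 2.90, 2.39, 2.26 and 2.95 TPM in wild type and 3.08, 6.31 and 5.62 TPM in Meioc-null testes, and was not tested on its own. Of the 10604 tested genes with a mean of at least 5 TPM, Sox13 followed Hk1 most closely over the 7 libraries (Pearson correlation of log2 CPM 0.992), then Lamb1 (0.984) and Zfp655 (0.980). These correlations describe 7 points that share the genotype contrast and the library scaling.

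Slc2a1 (chr4:119108711-119137983, plus strand), which brings glucose into the cell, gave no call. It had 21.0, 25.6, 31.01 and 25.4 CPM in the wild-type libraries and 25.4, 32.7 and 25.7 CPM in the Meioc-null libraries. The ranges overlapped. Its log2 fold change of -0.11 (SE 0.14, adjusted p = 0.63 by edgeR) became 0.013 without Meioc-null replicate 2. Slc2a3, or GLUT3, a glucose transporter of high affinity and a gene of the pathway list that is not one of the 10, was lower in wild type: 24.4, 23.3, 25.6 and 19.0 CPM against 35.6, 33.8 and 29.8 CPM. Its log2 fold change was -0.52 (SE 0.12, adjusted p = 0.027 by edgeR), and it was called in 1 of the 7 fits that left out 1 library, the one without wild-type replicate 1, with adjusted p of up to 0.076. Its TPM was 0.664 to 1.24 times that of Slc2a1, so the transporters stood at about the same level per length.

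Pgk1 makes the first ATP of the pathway. Its CPM was 69.3, 78.6, 83.6 and 82.3 in wild type and 75.8, 53.7 and 56.4 in Meioc-null libraries. Meioc-null replicate 1 lay within the wild-type range and the other two below it. The log2 fold change of 0.34 (SE 0.13, adjusted p = 0.11 by edgeR) was not called, and without Meioc-null replicate 1 it was 0.51 with an adjusted p of 0.018. Pgk2 made up 0.135% of the TPM of the pair in the 1 library where it had a count.

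Pkm (chr9:59656368-59679375, plus strand) makes pyruvate and ATP from phosphoenolpyruvate. It was measured at 957.4, 1016, 1020 and 1029 CPM in wild-type testes and at 898.7, 740.4 and 900.5 CPM in Meioc-null libraries. All wild-type libraries were above all Meioc-null ones. The log2 fold change was 0.25 (SE 0.084) with an adjusted p of 0.081 by edgeR, short of a call. It was 0.027 on the log2(TPM + 1) scale, which is 0.25 relative to the median of all genes there.

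Pkm transcripts carry either of 2 mutually exclusive exons of 167 bases, which distinguish the M1 form of differentiated tissues from the M2 form of embryonic and proliferating cells. The exons are shown because the transcript shares rest in part on them, with the bases that differ in capitals. The transcript Pkm-202 carries the M1 exon (chr9:59675029-59675195) and the other transcript the M2 exon (chr9:59675568-59675734), both GRCm38, plus strand.
M1 exon: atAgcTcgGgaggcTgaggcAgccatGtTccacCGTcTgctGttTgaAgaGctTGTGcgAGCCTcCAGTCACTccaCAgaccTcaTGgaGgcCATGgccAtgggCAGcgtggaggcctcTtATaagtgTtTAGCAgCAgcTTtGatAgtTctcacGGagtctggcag
M2 exon: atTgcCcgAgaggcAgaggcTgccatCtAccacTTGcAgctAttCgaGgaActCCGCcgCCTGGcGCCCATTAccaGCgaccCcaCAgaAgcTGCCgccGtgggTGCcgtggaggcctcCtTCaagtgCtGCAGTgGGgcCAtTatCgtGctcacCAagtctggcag

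The exons differ at 64 bases (61.7% identity) and share no 31-base word, so a read within either exon belongs to 1 form. The transcripts differ at their ends as well (Pkm-202 chr9:59656573-59679189, the M2 transcript chr9:59656368-59679375), so reads there enter the shares too. Reads divided with the other genes that hold 52.6% of the Pkm words also enter them. The M2 transcript held 98.6%, 98.2%, 98.5% and 98.1% of Pkm TPM in wild type and 98.8%, 98.2% and 99.3% in Meioc-null libraries. By this estimate, which does not rest on the exons alone, the M2 form made up nearly all Pkm RNA in each library. The groups overlapped (exact two-sided permutation p = 0.229, adjusted 0.4, difference -0.42 percentage points). The M1 transcript was at 7.74 TPM ± 1.08 (SD, n = 4) and 5.62 TPM ± 2.33 (SD, n = 3).

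Ldhb (chr6:142490249-142507957, minus strand) and Ldha encode the subunits whose tetramers convert lactate and pyruvate, with Ldha the form of glycolytic muscle. Ldhb was at 553.3, 644.9, 613.1 and 604.6 CPM in wild-type testes and at 524.3, 473.7 and 515.7 CPM in Meioc-null libraries. The groups did not overlap. The log2 fold change of 0.26 (SE 0.077, adjusted p = 0.058 by edgeR) was short of a call, was called by DESeq2 with an adjusted p of 0.024, and turned to -0.018 on the log2(TPM + 1) scale. In TPM itself, Ldhb was 677.0 ± 12.7 (SD, n = 4) and 685.9 ± 25.3 (SD, n = 3).

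Ldha was at 47.3, 55.9, 50.7 and 40.7 CPM in wild-type libraries and 55.6, 49.6 and 53.7 CPM in Meioc-null libraries. The ranges overlapped, and the log2 fold change was -0.13 (SE 0.11, adjusted p = 0.47 by edgeR), not a call. The balance within the family, which needs no scaling between libraries, was examined next. Ldha held 6.63%, 6.12%, 5.71% and 4.54% of the TPM of Ldha, Ldhb and Ldhc in wild type and 7.24%, 7.60% and 7.20% in Meioc-null libraries. Every Meioc-null library was above every wild-type one, and the means were 5.75% ± 0.889 and 7.35% ± 0.221. The exact two-sided permutation p of this difference of -1.60 percentage points was 0.0571, the smallest possible here, and 0.2 after adjustment over 7 shares. Ldhb accounted for nearly all the rest, at 94.2% and 92.6%, and its TPM was 12.1 to 21.0 times that of Ldha. Reads divided with the pseudogenes of Ldha and Ldhb do enter this share.

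**Figure D2:**
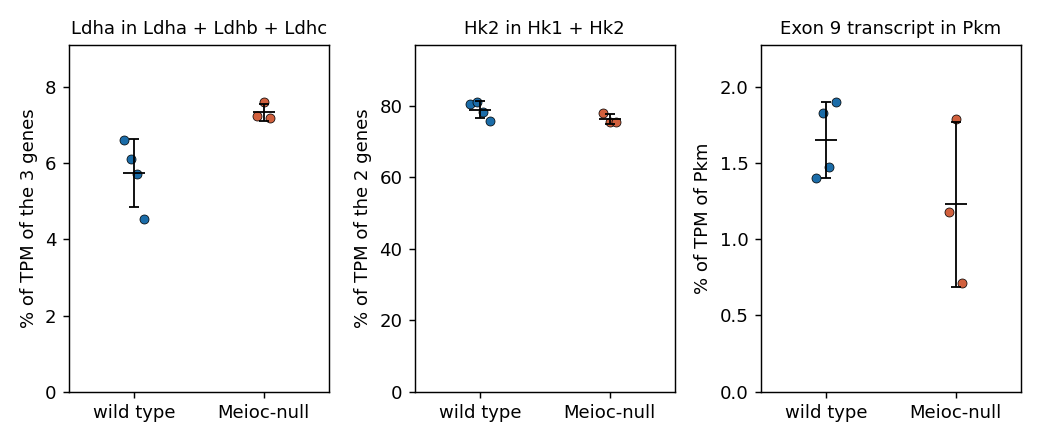
Percent of TPM in each library for Ldha within the 3 lactate dehydrogenase genes, Hk2 within Hk1 and Hk2, and the exon 9 (M1) transcript within Pkm, in 4 wild-type (blue) and 3 Meioc-null (orange) libraries, with mean and SD. The Ldha share is 4.54% to 6.63% in wild type and 7.20% to 7.60% in Meioc-null testes without overlap, while the other panels overlap.

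Slc16a1 (chr3:104638668-104658462, plus strand) moves lactate and pyruvate across the plasma membrane together with a proton. Its CPM was 162.5, 169.5, 190.7 and 230.0 in wild type and 185.6, 142.2 and 156.9 in Meioc-null libraries, with overlapping ranges. The log2 fold change was 0.22 (SE 0.13, adjusted p = 0.30 by edgeR) and turned to -0.042 on the log2(TPM + 1) scale. Bsg, or basigin, the chaperone that carries this transporter to the membrane, is on the pathway list but not one of the 10. It was higher in wild type, at 455.6, 465.7, 480.4 and 496.9 CPM against 398.3, 293.3 and 387.3 CPM. Its log2 fold change of 0.40 (SE 0.11, adjusted p = 0.042 by edgeR) kept its sign but lost the call in 10 of the 15 alternatives. These included both TPM scales (0.15 on log2(TPM + 1)), no scaling beyond library size (adjusted p = 0.068), no filter on low values (0.053) and 5 of the 7 fits without 1 library (up to 0.12), the exceptions being wild-type replicate 1 and Meioc-null replicate 1.

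On the wider list of glycolysis and lactate genes, which includes the 10, 36 of 47 were tested. There were 3 called lower in wild type, Hk1, Slc2a3 and Aldoc, and 1 called higher, Bsg. That is 8.33% and 2.78% of those tested, beside 3.33% and 7.77% of all genes. The list median was 0.057, with 20 genes above and 16 below 0, and turned to -0.14 on the log2(TPM + 1) scale. Aldoc, an aldolase best known from brain, was at 14.1, 11.4, 10.3 and 10.1 CPM in wild-type testes and 16.3, 17.7 and 15.3 CPM in Meioc-null libraries (log2 fold change -0.52, SE 0.14, adjusted p = 0.044 by edgeR). The groups did not overlap, and the call held in 1 of the 7 fits without 1 library, that without wild-type replicate 1. Among uncalled genes the highest value was that of the enolase Eno2 (0.82, adjusted p = 0.051 by edgeR) and the lowest that of Hk2 (-0.15), with the phosphoglycerate mutase Pgam1 next (-0.15). With 1 of wild-type replicates 2, 3 and 4 or of Meioc-null replicates 2 and 3 left out, 0 genes of this list were called in either direction. Without wild-type replicate 1 there were 3 lower and 2 higher, and without Meioc-null replicate 1 there were 1 lower and 2 higher. Over all genes, the fits with 0 list calls gave 131 to 478 calls in place of 1513. Without wild-type replicate 1 and without Meioc-null replicate 1 there were 2172 and 2112.

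**Figure D3:**
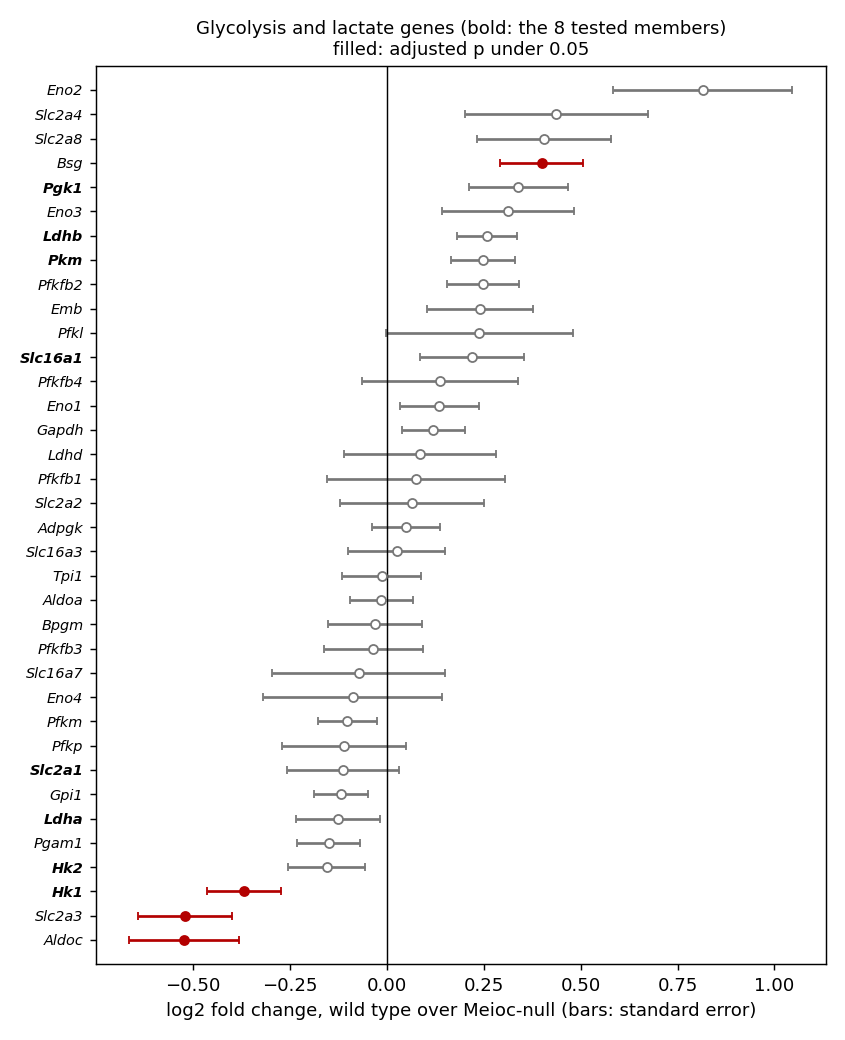
Log2 fold change (wild type over Meioc-null, edgeR) with its standard error for the 36 tested genes of the glycolysis and lactate list, in order of size. Filled red points have an adjusted p under 0.05 and bold names are the 8 tested members; Aldoc, Slc2a3 and Hk1 lie at the bottom (-0.52, -0.52 and -0.37) and Bsg near the top (0.40).

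The step after glycolysis was examined with 14 genes of pyruvate entry into mitochondria, all tested, with a median of 0.031. By edgeR 1 was called higher (7.14%) and 0 lower in wild type, beside 7.77% and 3.33% of all genes. At an unadjusted p under 0.05, which 4133 of all 13630 genes had in either direction, 1 was higher and 2 were lower. DESeq2 called 1 higher and 1 lower, beside 1456 higher and 875 (6.42%) lower of all genes. The called gene was Pdha2, the autosomal retrogene for the E1 alpha subunit of pyruvate dehydrogenase. It was at 13.7, 10.6, 10.2 and 11.0 CPM in wild-type testes and 5.34, 4.42 and 4.73 CPM in Meioc-null libraries. The lowest wild-type library lay well above the highest Meioc-null one. Its log2 fold change of 1.23 (SE 0.16, adjusted p = 0.0051 by edgeR) was called in all 7 fits without 1 library and in all 15 alternatives, between 0.83 and 1.31. The 12 germ cell markers summed to 2468 to 2985 CPM in the same wild-type libraries and 1774 to 1954 CPM in the Meioc-null ones, a difference whose part in the Pdha2 value was not tested. Its X-linked source gene Pdha1 had 44.0, 47.5, 47.4 and 49.7 CPM in wild-type testes and 58.3, 48.1 and 56.3 CPM in Meioc-null libraries, and its log2 fold change of -0.20 was not called (adjusted p = 0.16 by edgeR). Of the uncalled genes, the kinase Pdk1, which inhibits pyruvate dehydrogenase, was lowest (-0.34) and the E1 beta subunit Pdhb highest (0.21). Among the germ-cell retrogenes of these steps, Pdha2 was measured well above the limit of detection in both genotypes, where Pgk2 was not.

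**Figure D4:**
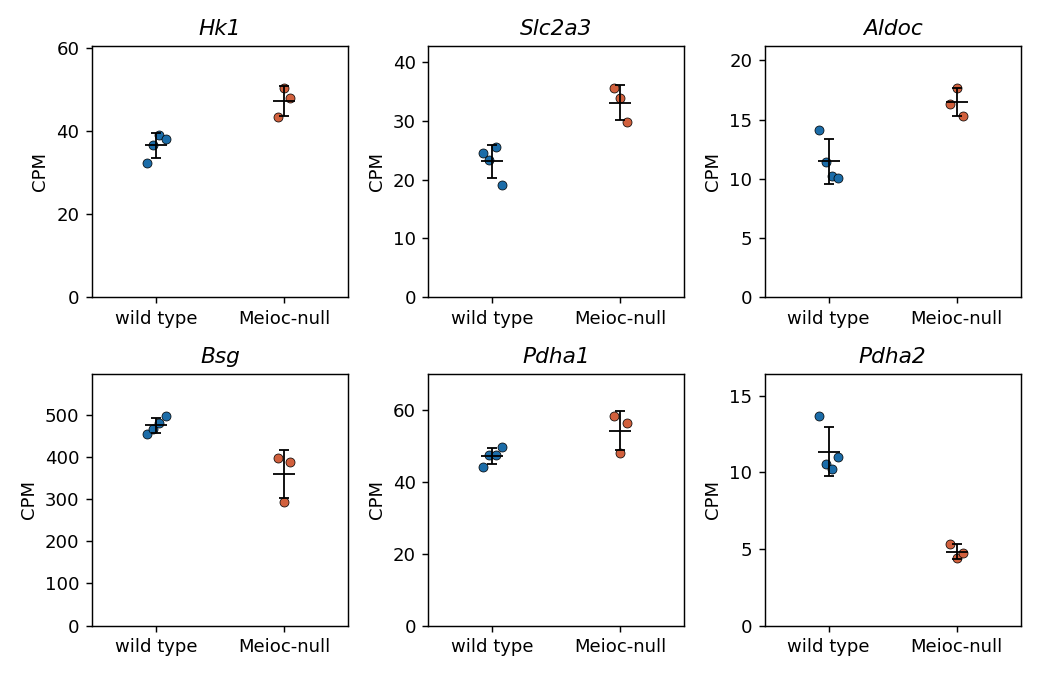
CPM in each library, with mean and SD, of the called genes Hk1, Slc2a3, Aldoc, Bsg and Pdha2 and of Pdha1, in 4 wild-type (blue) and 3 Meioc-null (orange) libraries, each axis starting at 0. Pdha2 lies at 10.2 to 13.7 CPM in wild-type testes and 4.42 to 5.34 CPM in Meioc-null pups, and Pdha1 overlaps.

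Hypoxia raises many glycolytic genes through hypoxia-inducible factors, so 22 genes of that response were read beside them. Of the 18 tested, 2 were called lower (11.1%) and 0 higher in wild type by edgeR, beside 3.33% and 7.77% of all genes. Their median was 0.0015. None was higher at an unadjusted p under 0.05 or by DESeq2 (0 of 18 in each), which called 1456 of all 13630 genes higher. Lower were 3 at that unadjusted p, which 4133 of all 13630 genes had in either direction. DESeq2 called 2 lower, beside 6.42% of all genes. Ndrg1, a stress-response gene, had a log2 fold change of -0.49 (SE 0.11, adjusted p = 0.024) and Ddit4, an inhibitor of mTORC1, of -0.32 (SE 0.083, adjusted p = 0.040), both by edgeR. Higd1a was highest (0.21) and Adm lowest (-0.37) among the rest. Ddit4 lost its call in every fit that left out 1 library, and Ndrg1 was called in 2 of 7.

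Some cell-type markers moved with genotype in the same libraries. Over all genes, edgeR called 7.77% higher and 3.33% lower in wild type, which is the background for the counts that follow. Of the 12 germ cell markers, Dazl, Mael, Tex101 and Kit were called higher and Zbtb16 lower in wild type, with a list median of 0.22, and their summed CPM did not overlap (2468 to 2985 against 1774 to 1954), nor did it without Dazl, the most abundant of them (1450 to 1808 against 1074 to 1171). Of the 16 Sertoli markers, Gata4 and Kitl were called lower, with a median of -0.077. Their sums did not overlap with Clu (6193 to 6328 against 6379 to 7054) and overlapped without it (2565 to 2783 against 2661 to 2861). Hspa2 was the called gene among the 6 tested for pachytene and later cells (sums 195.4 to 257.7 against 177.3 to 191.6, and 116.6 to 156.9 against 106.8 to 123.7 without Mybl1). In the remaining lists, Hsd17b3 of 10 Leydig markers and Egfl7 of 9 endothelial markers were higher, Des of 8 peritubular myoid markers was lower, and edgeR called none of 10 macrophage or 6 red blood cell markers. Over all 13630 genes, 4133 had an unadjusted p under 0.05 in either direction, and DESeq2 called 1456 higher and 875 (6.42%) lower. At that unadjusted p, 1 macrophage marker was lower and 2 red blood cell markers were higher, and DESeq2 called 0 and 1 of them. Their summed CPM overlapped between genotypes in these 5 lists, at 470.8 to 807.8 against 515.6 to 812.4 for Leydig, 731.9 to 834.9 against 699.3 to 834.3 for myoid, 101.6 to 118.4 against 101.0 to 120.3 for endothelial, 375.2 to 396.6 against 351.1 to 450.0 for macrophage and 369.4 to 703.7 against 279.1 to 512.7 for red blood cell markers. Whether cell makeup had a part in the values of Hk1, Slc2a3, Aldoc, Bsg, Pdha2 or the Ldha share was not tested.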

How the data were processed

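Bulk RNA-seq libraries of 4 wild-type and 3 Meioc-null pups were grouped by the genotype in their labels, 1 pup per library. The authors trimmed single-end reads with cutadapt 1.8 and ran stranded kallisto 0.44.0 with bias correction on transcripts of GENCODE Basic vM15. In the deposited tables are kallisto's estimated counts per protein-coding transcript, not normalized, and the authors' TPM, renormalized over those transcripts. TPM has a fixed total and keeps no depth, so counts were the main unit and TPM served levels and shares.

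Both were summed by gene through GENCODE vM21 on GRCm38. Of 43139 transcripts, 119 (0.247% to 0.282% of counts) were not matched and were left out. Counts were rounded, filtered (TPM of 1 or more in 3 or more libraries), scaled by TMM and fitted on genotype alone with edgeR 4.0.16 (R 4.3.3, quasi-likelihood test). Alternatives used DESeq2 1.42.0, limma 3.58.1, other scalings and filters, a replicate block and each library left out. Shares of TPM were compared by exact permutation (35 assignments). The 31-base words of members were searched in the basic transcripts of GENCODE vM21. On simulated counts of 13630 genes for this comparison, the edgeR step recovered 28 of 67 genes changed 1.5-fold, 53 of 67 changed 2-fold and 65 of 66 changed 4-fold, with 10 false calls. Only these genes were changed, fewer than the 1513 called in the data, and adjusted p values depend on how many genes change. The recovered counts therefore need not hold for the measured libraries. No 2 libraries agreed within counting noise (smallest ratio 7.89, wild-type replicates 2 and 3). Wild-type replicate 1 was closer to Meioc-null replicate 1 (ratio 11.42) than to any wild-type library (14.13 to 23.41). Meioc-null replicate 1 was likewise closer to it than to Meioc-null replicates 3 (15.14) and 2 (27.43).

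Marker sums without the most abundant gene of a list were added after seeing the data. The members and gene lists were chosen with earlier results of these data known. Named genes are the members, the called genes of each list, the highest and lowest uncalled gene of each pathway list, all annotated germ-cell paralogs and the 3 genes most like a called member. Pdha1 falls outside this rule as the partner of Pdha2 and was chosen after its values were seen, as were the late germ cell markers at 0 to 3 counts and the pseudogenes named for shared words. The scRNA-seq of the same study was not used here.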

Additional observations from a re-analysis of the deposited data

How the results depend on the processing

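The direction of Ldha, Pgk1, Hk1, Hk2, Pkm, Slc2a3, Aldoc, Bsg, Pdha2, Ndrg1 and Ddit4 held in all 15 alternatives, and that of Eno2 in the 14 that tested it. On log2(TPM + 1) and log2(TPM + 0.1), Ldhb turned to -0.018 in both and Slc16a1 to -0.042 and -0.043, and Slc2a1 was 0.013 without Meioc-null replicate 2. The cause of these turns was not tested, but relative to the median shift of all genes (-0.23 and -0.25) Ldhb and Slc16a1 stayed positive.

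Over all genes tested, DESeq2 called 1456 higher and 875 lower (6.42%). Limma called 440 higher and 2082 lower (15.3%) on log2(TPM + 1), and 443 and 2063 (15.1%) on log2(TPM + 0.1). Without scaling 810 were higher and 904 lower (6.63%). Without the filter 950 were higher and 431 lower (2.23% of 19310). The list counts by these settings are to be read beside these. Among the members, edgeR called 0 higher and 1 lower. DESeq2 called 1 higher, limma on either TPM scale 2 lower, and leaving out 1 library gave 0 to 1 higher and 0 to 1 lower. The members' median of 0.053 became -0.19 and -0.20 on the TPM scales. For the pathway list (1 higher, 3 lower), DESeq2 called 3 higher, while no scaling beyond library size, both TPM scales and no filter on low values each gave 0 higher, the TPM scales 6 lower, and leaving out 1 library 0 to 2 higher and 0 to 3 lower. Its median was -0.022 without scaling, -0.14 and -0.19 on the TPM scales, -0.027 with a TPM minimum of 5, and -0.018 to 0.11 with 1 library left out. For pyruvate entry, DESeq2 called 1 lower and the TPM scales 3, and the median was -0.047 without scaling and -0.21 and -0.23 on the TPM scales. For hypoxia (0 higher, 2 lower), the TPM scales called 6 lower, no filter 1 lower, and leaving out 1 library gave 0 to 1 higher and 0 to 1 lower, with medians of -0.077 without scaling, -0.26 and -0.27 on the TPM scales and -0.088 to 0.0080 with 1 library left out.

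The Ldhc share difference turned to -0.011 percentage points with counts, and the Hk1-203 share ranged from -1.59 upwards, with -0.71 without Meioc-null replicate 2 and 6.31 as its highest value, without Meioc-null replicate 1. Over all genes, 1513 calls became 2331 by DESeq2, 2522 and 2506 on the TPM scales, and 131 to 2172 with 1 library left out (fewest without Meioc-null replicate 3, most without wild-type replicate 1).

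The labels number the replicates of both groups. Deviations from the group means had correlations of -0.012, -0.089 and -0.17 in same-numbered libraries, beside -0.083 to 0.17 in the other pairs. So few pairs, with deviations centred within small groups, cannot show whether same-numbered libraries share more than a number. With the replicate number as a block, 109 genes were called instead of 1513, and 0 members, 0 pathway genes and 0 hypoxia genes in either direction. Wild-type replicate 4 had no partner in that fit, which compared genotypes within 3 pairs and so left less room to call a change. Pdha2 kept its call (adjusted p = 0.028 by edgeR), and Hk1 had a log2 fold change of -0.39 with an adjusted p of 0.15. At this depth, 0 counts of Pgk2 leave up to 3 counts open, and transcript shares of Hk1 are estimates without a counting interval.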
